A study of Caenorhabditis elegans with 2 samples.

Results

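The heterochronic genes of Caenorhabditis elegans are described here by the binding of GRH-1, a transcription factor that represents the Grainyhead family in the worm. The set held 9 genes chosen by name: lin-14, lin-28, hbl-1, lin-41, lin-46, lin-29 and lin-42, which encode proteins, and lin-4 and let-7, which encode microRNAs. Every GRH-1 summit inside a gene or within 5 kb of its outermost annotated ends was assigned to it. The authors' thresholded list for the pooled replicates holds 2470 summits, and 10 of them were assigned to the 9 genes in this way. The data came from chromatin immunoprecipitation and sequencing (ChIP-seq) of whole L1 larvae of the strain RW12208, which carries the allele grh-1::TY1::EGFP::3xFLAG, made by CRISPR insertion at the grh-1 locus. An anti-GFP antibody was used to precipitate the tagged protein. The animals were synchronised by starvation after bleaching and were 6 h old. There was 1 group of 2 biological replicates, with no second genotype, stage or treatment, so no contrast was tested and no p-value is given. Signal from whole animals does not tell in which cells a site was bound.

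The heterochronic pathway sets the order of cell divisions and fates from one larval stage to the next, above all in the seam cells and the rest of the epidermis. LIN-14, LIN-28 and HBL-1 promote the fates of early stages. The microRNA lin-4 represses lin-14 and lin-28, and let-7 and its relatives repress lin-41 and hbl-1, which leads to LIN-29 activity and adult fates. Grainyhead proteins are best known for their role in the epidermis and other epithelia.

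Of the 9 genes, 6 held at least 1 pooled summit in or within 5 kb. They were lin-28 with 4 summits, lin-41 with 2, and lin-14, hbl-1, lin-42 and let-7 with 1 each. Of all 19973 protein-coding genes, 25.1% held one (95% Wilson interval 24.6 to 25.8, counting error only), and of the 261 microRNA genes 28.7% did. Long genes have more room for a summit. Among protein-coding genes whose extended length was within 20% of the member's own, the share with a summit was 39.6% for the length of lin-14, 38.1% for that of lin-42, 32.7% for lin-41, 29.4% for hbl-1, 23.8% for lin-28 and 22.8% for let-7. No pooled summit was assigned to lin-46, lin-29 or lin-4, for whose lengths the shares were 22.95%, 37.7% and 21.0%. The 9 genes with their flanks held 0.598 thresholded summits per 10 kb, against 0.246 per 10 kb over the chromosomes. Much of this came from lin-28, with 4 of the 10 summits and 3.04 per 10 kb. The other genes had from 0 to 1.13 per 10 kb, the latter at lin-41. With 1 summit per region of overlapping peaks the 9 genes had 8, and no density was taken for that count. Peaks of the ranked list, which holds every candidate peak whether it passed or not, were about as dense around the 9 genes as over the chromosomes, at 11.4 and 11.7 per 10 kb.

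**Figure D1:**
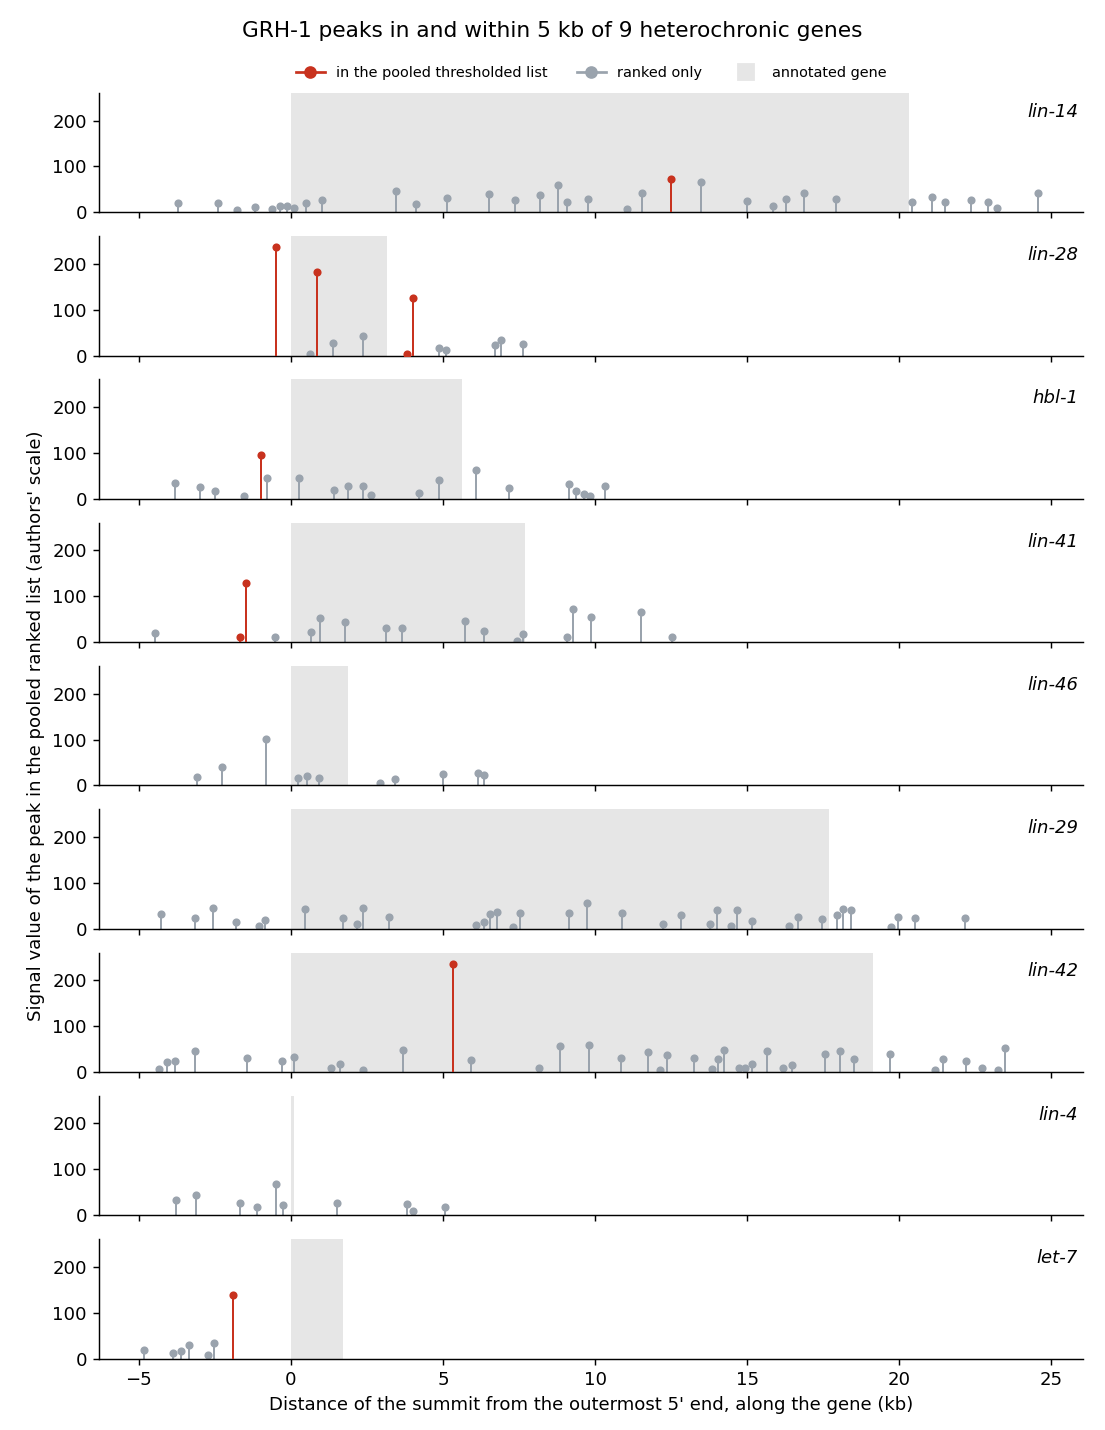
Pooled ranked peaks in and within 5 kb of each heterochronic gene, by the distance of the summit from the outermost 5′ end along the gene (horizontal, kb) and the authors' signal value (vertical); red peaks are in the thresholded list, grey peaks are ranked only, and the grey band is the annotated gene. The 3 strong peaks of lin-28 flank and enter the gene, lin-42 has a single peak of 236 in its gene body, and no peak of lin-29 exceeds 55.6.

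The sequences at 4 of the sites are shown because they carry, or lack, the short sequences searched for here, some of them of Grainyhead type. Each is 201 bases centred on the summit, read from the genome assembly WBcel235 (ce11) on the strand of the gene, with matches in capitals. The searched motifs were AACCGGTT, the pair of AACCGGTT and AACTGGTT counted as 1, and the core ACCGGT, all of Grainyhead type. With them went the repeat GAGAGA, the E-box CACGTG, the nuclear receptor site RGGTCA (with R for A or G) and a sequence frequent at GRH-1 summits, AGACGCAG. Each was searched on both strands. Every AACCGGTT counts for all 3 Grainyhead types. A match is a description and does not show that a factor sits there. The lin-42 site lies in an intron, at chrII:1246937-1247137 on the reverse strand. Its capitals mark, in order, the repeat GAGAGA, the nuclear receptor site in reverse complement, the core ACCGGT and the 8-mer AGACGCAG in reverse complement.
lin-42 intron site: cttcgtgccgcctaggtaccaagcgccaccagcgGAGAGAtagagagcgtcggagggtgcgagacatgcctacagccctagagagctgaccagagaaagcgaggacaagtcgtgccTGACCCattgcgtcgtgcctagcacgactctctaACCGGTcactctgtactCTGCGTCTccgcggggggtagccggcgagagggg
The let-7 site lies upstream of the gene, at chrX:14747103-14747303 on the reverse strand, and its capitals mark ACCGGT and GAGAGA.
let-7 upstream site: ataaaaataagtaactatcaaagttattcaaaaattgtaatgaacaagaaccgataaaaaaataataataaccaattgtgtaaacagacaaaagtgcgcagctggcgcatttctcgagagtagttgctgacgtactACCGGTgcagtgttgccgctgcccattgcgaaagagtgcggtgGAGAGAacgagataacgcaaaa
The hbl-1 site lies upstream of the gene, at chrX:5821054-5821254 on the forward strand, and its capitals mark RGGTCA and, after it, GAGAGA at 2 positions.
hbl-1 upstream site: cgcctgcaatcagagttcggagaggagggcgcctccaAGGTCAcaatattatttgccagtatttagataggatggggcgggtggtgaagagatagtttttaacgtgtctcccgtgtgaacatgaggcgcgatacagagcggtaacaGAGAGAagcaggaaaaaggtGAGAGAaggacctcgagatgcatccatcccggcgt
The lin-46 site, at chrV:12967953-12968153 on the forward strand, held none of the motifs and so has no capitals. It is not among the 10 pooled summits, and the 5′ end nearest to it is that of R186.8.
lin-46 upstream site: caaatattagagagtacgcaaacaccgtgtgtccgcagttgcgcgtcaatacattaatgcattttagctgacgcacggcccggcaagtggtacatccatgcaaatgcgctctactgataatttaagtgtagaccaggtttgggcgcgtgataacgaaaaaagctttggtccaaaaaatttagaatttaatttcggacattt

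None of the 10 member summits held the full palindrome AACCGGTT within 100 bp and none held AACTGGTT, against 3.81% of all pooled summits with the palindrome and 8.54% with either. The shorter core ACCGGT was at 2 of the 10, those of lin-42 and let-7, against 7.09% of all pooled summits and 1.49% of windows of the same length tiled over the genome. GAGAGA was at 6 of the 10 (35.2% of all pooled summits, 9.99% of genome windows) and RGGTCA at 4 of the 10 (13.3% and 7.66%). AGACGCAG was at the lin-42 summit alone among the 10 (12.1% of all pooled summits, 1.06% of genome windows), and CACGTG was at none (11.1% and 3.33%). AGACGCAG entered the search as a sequence frequent at GRH-1 summits, so its higher share there is not a separate result. The lin-42 window was 62.7% G and C, the let-7 window 39.3%, the hbl-1 window 51.7% and the lin-46 window 42.3%, beside a median of 42.8% over all pooled summits and 35.4% for the genome.

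The levels below are signal values, the authors' own score of a peak on a scale that is not stated, and each value belongs to its own list. A value of one replicate is therefore set beside another replicate's by rank. The pooled list and a second, conservative pooled list give the same signal value to the 2096 peaks they share, and differ in the irreproducible discovery rate (IDR) given to a peak. No thresholded peak had a −log10 IDR under 2, and a peak described as not passing is absent from the thresholded list. A few peaks at or above 2 are absent from it as well: the pooled ranked list has 2519 such peaks and the thresholded list 2470. In the pooled list the 9 genes had 10 summits under either rule. What each IDR was computed between is not stated in the sources used here.

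Among the early-acting genes, lin-28 encodes an RNA-binding protein that blocks the maturation of let-7 and favours early larval fates, and it held more summits than any other gene of the set. Its 4 pooled summits compare with 0.681% of protein-coding genes (136 of 19973) that held 4 or more. One of the 4 is a weak shoulder, and with 1 summit per region of overlapping peaks lin-28 had 3, against 1.64% of protein-coding genes with at least as many. Replicate 1's list gave it 3 summits (1.00% of genes with at least as many) and replicate 2's gave it 2 (3.23%). The gene lies on the reverse strand of chromosome I between bases 8407630 and 8410804. Its highest summit had a pooled signal value of 237 and ranked 575 of 2470. That peak spanned bases 8411130 to 8411473, in intergenic sequence 498 bp upstream of the 5′ end of isoform a. The signal value there was 136 in replicate 1 (rank 580 of 1787) and 85.6 in replicate 2 (rank 769 of 1487), so both replicates' own lists held it.

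The second lin-28 summit had a pooled signal value of 182 (rank 824) and lay inside the gene, in an intron of isoform a and 25 bp upstream of the 5′ end of isoform b. Replicate 1 had 107 there (rank 790) and replicate 2 had 79.1 (rank 843). Both 5′ ends of lin-28 thus had a summit within 498 bp that each replicate's list also held. The third summit, with a pooled value of 126 (rank 1244), lay downstream of lin-28 and 45 bp upstream of the 5′ end of the neighbouring gene F02E9.1. It was also in the promoter window of F02E9.3, that is, from 1000 bp before to 200 bp after a 5′ end. Its value was 81.0 in replicate 1 (rank 1076), while in replicate 2 it was 38.9 and did not pass (−log10 IDR 0.42). In the ranked lists it was 1097 of 99502 in replicate 1 and 2695 of 85197 in replicate 2. The last summit, with a value of 3.74, lay 203 bp from the third, in a coding exon of F02E9.1. It ranked 2453 in the thresholded list and 114250 of 117774 in the ranked list, and had a −log10 IDR of 3.01, as had its stronger neighbour.

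The gene hbl-1 encodes a zinc finger transcription factor of the Hunchback family that specifies early fates of the hypodermis. It lies on the forward strand of the X chromosome between bases 5822142 and 5827755. Its single summit, in intergenic sequence 988 bp upstream of the outermost 5′ end, had a pooled signal value of 95.2 and ranked 1730. The peak spanned bases 5820982 to 5821325, and the summit was near the far edge of the promoter window, which begins 1000 bp upstream. Replicate 1 held a thresholded peak 885 bp upstream with a value of 58.4. That peak ranked 1502 of 1787 in the thresholded list and 1644 of 99502 in the ranked list. In replicate 2 the value was 35.7, which ranked 3514 of 85197 in the ranked list and did not pass (−log10 IDR 0.070).

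The gene lin-14 encodes a nuclear protein that acts in the first larval stage and is the classical target of lin-4. It lies on the forward strand of the X chromosome between bases 11465560 and 11485871. Its summit had a pooled signal value of 72.7 and rank 2282, the lowest of the 8 summits that were not shoulders of a stronger peak. It lay in an intron, 12508 bp inside the gene and 2293 bp upstream of the 5′ end of isoform b. The pooled −log10 IDR was 2.12, and in the conservative list the same peak had 1.69 and did not pass. Neither replicate's own list held it, with 39.9 in replicate 1 (rank 3565 of 99502) and 30.2 in replicate 2 (rank 6583 of 85197). The promoter windows of lin-14 held no summit of a thresholded list.

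**Figure D2:**
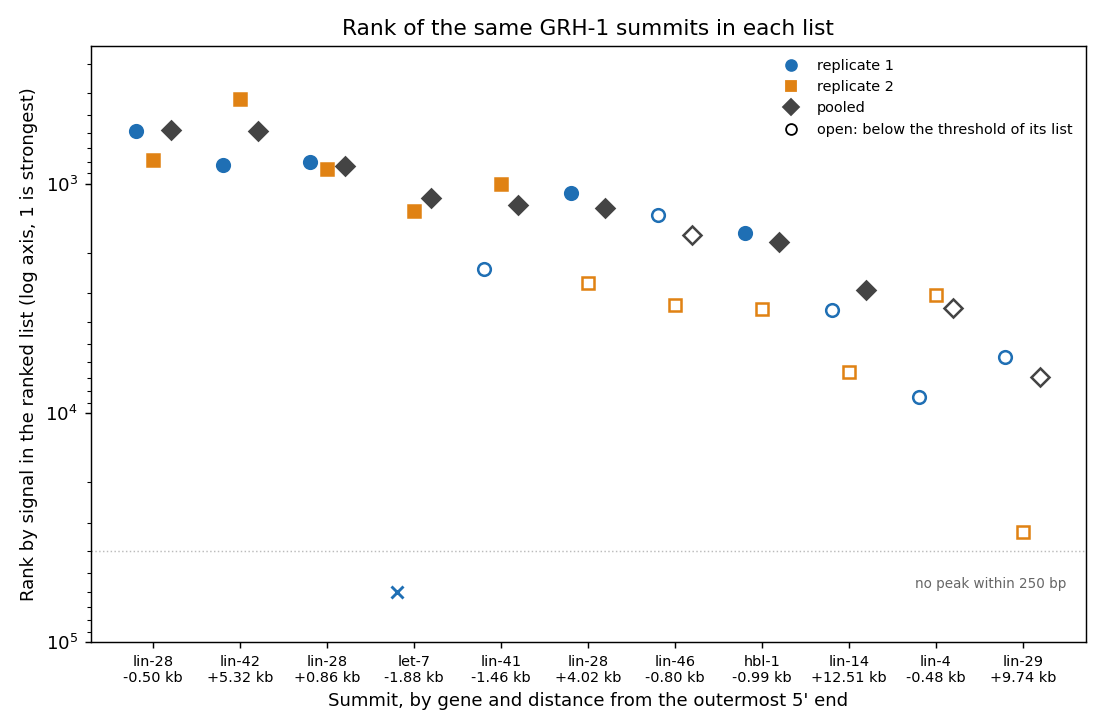
Rank by signal value of the same summits in the ranked lists of replicate 1, replicate 2 and the pooled replicates (log axis, 1 is the strongest, drawn upward), with summits matched within 250 bp and named by gene and distance from the outermost 5′ end; filled symbols passed the threshold of their list and a cross marks no peak. Both replicates' symbols are filled for the first 2 lin-28 summits and for lin-42 only, and let-7 has a cross for replicate 1.

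Of the later-acting genes, lin-41 encodes a TRIM-NHL RNA-binding protein that is a main target of let-7. The gene lies on the reverse strand of chromosome I between bases 9334800 and 9342496. A summit 1462 bp upstream of its outermost 5′ end, in intergenic sequence, had a pooled signal value of 129 and ranked 1209. Replicate 2 held it with a value of 70.4. There it ranked 967 of 1487 in the thresholded list and 1001 of 85197 in the ranked list. In replicate 1 its value was 46.9, which ranked 2357 of 99502 in the ranked list and had a −log10 IDR of 0.075. A shoulder 1667 bp upstream, 205 bp from the main summit, had a value of 10.5 and rank 2428. None of the 7 motifs was at the main summit, and the shoulder held GAGAGA alone.

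The gene lin-46 encodes a protein with similarity to the scaffold protein gephyrin and acts downstream of lin-28. It lies on the forward strand of chromosome V between bases 12968855 and 12970730. Its peak 802 bp upstream had the same signal value of 101 in both pooled lists and passed in the conservative list only, with a −log10 IDR of 2.44 there and 1.57 in the pooled list. Neither replicate's own list held it. Replicate 1 had a value of 67.5, rank 1367 of 99502 and a −log10 IDR of 1.78, and replicate 2 had 36.2, rank 3375 of 85197 and 0.062. The summit was 71 bp upstream of the 5′ end of R186.8 and was in the promoter windows of R186.3, R186.8 and lin-46, so it cannot be given to 1 of these genes.

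The gene lin-29 encodes the zinc finger transcription factor at the end of the pathway, which drives the switch to adult fates. It lies on the reverse strand of chromosome II between bases 11917642 and 11935343. None of its 37 pooled ranked peaks passed. Their median signal value was 25.3, beside a median of 23.9 over the whole ranked list, and the highest was 55.6 in an intron 9736 bp inside the gene (−log10 IDR 0.65). In replicate 1 that position had 34.7 (rank 5699 of 99502) and in replicate 2 it had 17.96 (rank 33077 of 85197).

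The gene lin-42 encodes the worm relative of the circadian protein Period, whose expression cycles with the molts and which lowers the transcription of several heterochronic microRNAs. It lies on the reverse strand of chromosome II between bases 1233236 and 1252359. Its single pooled summit had a signal value of 236, ranked 581 of 2470 and had the highest −log10 IDR of the 10 member summits, 4.05. Both replicates' lists held it, with 105 in replicate 1 (rank 815) and 132 in replicate 2 (rank 417). The peak spanned bases 1246865 to 1247208, 5322 bp inside the gene in an intron and 3002 bp upstream of the 5′ end of isoform b. The position is also within exons of the annotated non-coding RNAs F47F6.13 and F47F6.15. Replicate 1 listed a shoulder with a value of 5.92 beside it. The other 39 pooled ranked peaks of lin-42 reached 57.8 at most, so no other position in its 29.1 kb window came near.

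Of the microRNA genes, let-7 had a thresholded summit and lin-4 had none. The mature sequences of both and of the relatives of let-7, from the RefSeq annotation, are shown with the seed, bases 2 to 8, in capitals, since the seed sets which messages they recognise.
lin-4: uCCCUGAGaccucaaguguga
let-7: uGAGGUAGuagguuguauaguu
mir-48: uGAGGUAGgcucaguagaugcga
mir-84: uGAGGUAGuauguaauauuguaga
mir-241: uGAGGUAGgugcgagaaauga
The seed of let-7 is shared by mir-48, mir-84 and mir-241, its relatives in the pathway, and lin-4 has another. Of these 5 genes let-7 alone had a thresholded pooled summit in or within 5 kb. The highest pooled ranked values were 44.6 for mir-48 and mir-241, whose windows share that peak, and 49.1 for mir-84.

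The let-7 gene, annotated with its primary transcript on the reverse strand of the X chromosome between bases 14743590 and 14745321, had a summit 1882 bp upstream of the outermost 5′ end. The pooled signal value was 138, with rank 1126 and a −log10 IDR of 3.32. The peak spanned bases 14747031 to 14747374, in intergenic sequence, and lay 100 bp upstream of the 5′ end of wshc-2, in whose promoter window it was. Of the sites in the plot of ranks, this alone was absent from a ranked list. Replicate 2 held it with a value of 56.7 (rank 1207 of 1487), while the 99502 ranked peaks of replicate 1 and the 118140 of the conservative list had none within 250 bp. In replicate 1 the whole let-7 window held 2 ranked peaks, of which the higher had 25.8, against 10 in replicate 2. The reason for the missing peak is not recorded in the sources used here.

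The lin-4 gene lies on the forward strand of chromosome II between bases 5902254 and 5902347, in an intron of F59G1.4. It had no thresholded summit in any list. Its highest pooled ranked peak, 485 bp upstream, had a signal value of 67.8, rank 3487 of 117774 and a −log10 IDR of 1.72. In the replicates that position had 31.1 (replicate 1, rank 8515) and 37.3 (replicate 2, rank 3048). It held GAGAGA and no Grainyhead-type site.

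**Figure D3:**
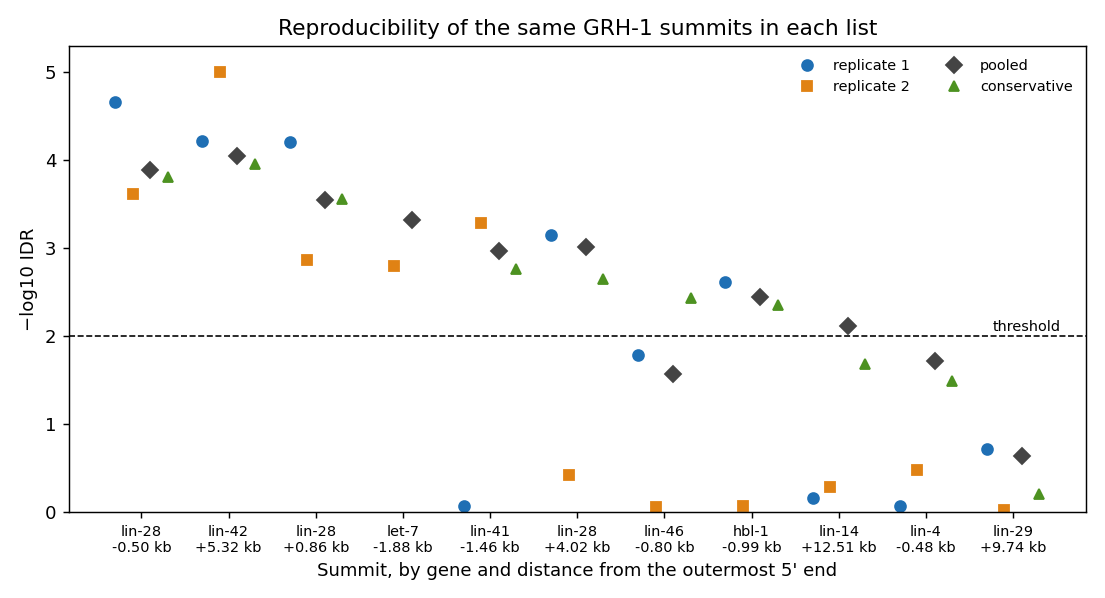
The −log10 IDR of the same summits in the lists of replicate 1, replicate 2, the pooled and the conservative list (vertical), with the threshold of 2 as a dashed line and summits named by gene and distance from the outermost 5′ end. The first 2 lin-28 summits and that of lin-42 are above the line in every list, lin-46 is above it in the conservative list only, and lin-14 in the pooled list only.

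Taking the lists one by one, replicate 1's thresholded list held summits at 3 of the 9 genes (6 summits), against 20.3% of protein-coding genes, and replicate 2's at 4 (5 summits), against 17.4%. The 3 genes of replicate 1 were lin-28, hbl-1 and lin-42, and the 4 of replicate 2 were lin-28, lin-41, lin-42 and let-7. Only lin-28 and lin-42 were in both. The conservative list had summits at 5 genes, without lin-14 and let-7 and with lin-46, against 24.5% of protein-coding genes. Across the 4 thresholded lists 7 of the 9 genes had a summit in at least 1. For this count and for the genes in both replicates' lists, the share of all protein-coding genes was not counted. Of the 10 pooled summits, 3 were within 250 bp of a summit in both replicates' lists, 3 in replicate 1's only, 3 in replicate 2's only and 1, that of lin-14, in neither. Over all 2470 pooled summits those shares were 50.2%, 18.4%, 7.73% and 23.7%. The shoulders of lin-28 and lin-41 matched the same replicate summits as their stronger neighbours, 199 bp away in replicate 1 and 187 bp away in replicate 2. Each shoulder thus repeats its neighbour's site in the counts over the 10. Promoter windows of 2 genes, lin-28 and hbl-1, held a pooled summit, against 8.16% of protein-coding genes.

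By the highest pooled ranked peak, the order of the genes was lin-28 (237), lin-42 (236), let-7 (138), lin-41 (129), lin-46 (101), hbl-1 (95.2), lin-14 (72.7), lin-4 (67.8) and lin-29 (55.6). The highest value of lin-28 was above that of 92.2% of protein-coding genes and that of lin-42 likewise, while lin-29, at 47.4%, was near the middle. In replicate 1 the order began with lin-28 (136) and lin-42 (105), and in replicate 2 with lin-42 (132) and lin-28 (85.6), so these genes led in each replicate and changed places. Further down the replicates gave other orders. In replicate 1 lin-46 (67.5) and hbl-1 (58.4) came next and let-7 was last (25.8). In replicate 2 lin-41 (70.4) and let-7 (56.7) came next, and lin-46 (36.2) and hbl-1 (35.7) stood just above lin-29 (26.5). The places from the third down are therefore not settled by 2 replicates.

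**Figure D4:**
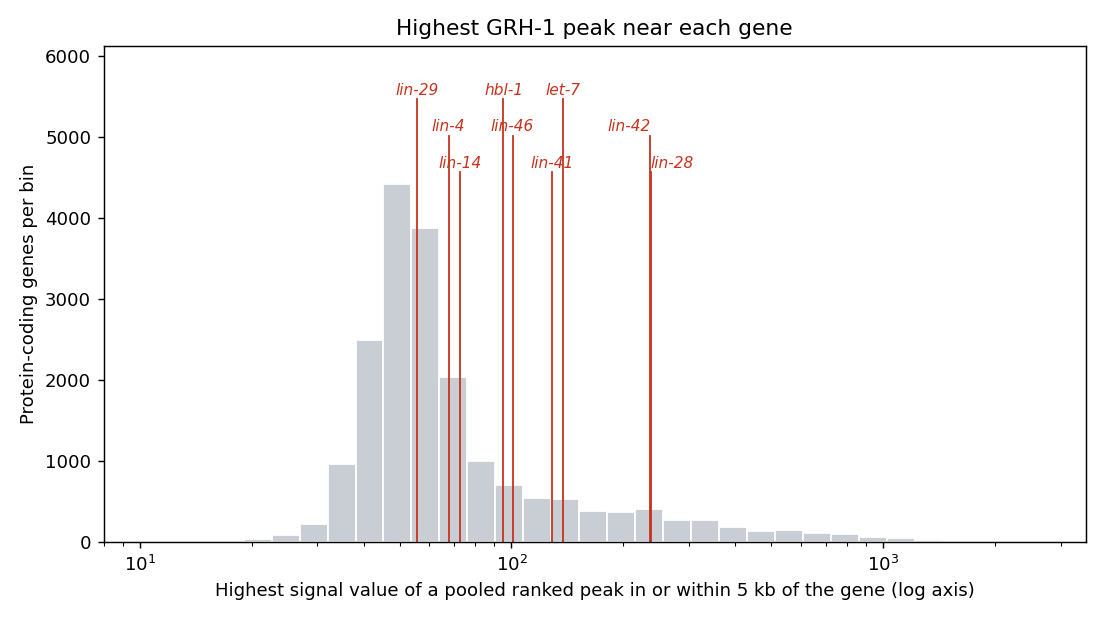
Highest signal value of a pooled ranked peak in or within 5 kb of a gene (horizontal, log axis), with the 9 heterochronic genes as red lines and the number of protein-coding genes per bin as grey bars. The median protein-coding gene had 56.8, just above lin-29, and lin-28 and lin-42 stand in the upper tail; the 417 genes with no ranked peak are not drawn.

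Several peaks lay just under the threshold, with a −log10 IDR between 1.5 and 2 in the pooled list. Besides those of lin-46 and lin-4, they were 1 peak each at lin-14, hbl-1 and lin-41. The lin-41 peak had a value of 71.8 and 1.77, beside 72.7 and 2.12 for the lin-14 summit just inside the threshold, and lay 267 bp from the 5′ end of the microRNA gene mir-79. Elsewhere it was far from passing, with a −log10 IDR of 0.11 in the conservative list, 0.051 in replicate 1 and 0.56 in replicate 2. The hbl-1 peak had 63.3 and 1.54 and was nearest to the 5′ end of acp-5. Its −log10 IDR was 1.09 in the conservative list, 0.065 in replicate 1 and 0.22 in replicate 2. The lin-14 peak had 59.99 and 1.52 and lay in an intron, and the other lists gave it 1.73 (conservative), 0.76 (replicate 1) and 1.25 (replicate 2).

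Other genes of the pathway, 26 in a list that leaves out the 9, held a pooled summit in or within 5 kb in 18 cases (69.2%), again beside 25.1% of protein-coding genes. No share over genes of like length was counted for this list. It also includes the microRNA genes mir-48, mir-84 and mir-241 and the long non-coding RNA gene lep-5. The list was drawn up with earlier results of these data known. Those results had already shown summits at 5 of its genes, nhr-23, nhr-25, nhr-85, myrf-1 and myrf-2, and without these 13 of 21 genes (61.9%) held one. The highest summit was nearest to a 5′ end of the listed gene itself in 13 of the 18 cases, and to that of a neighbour in the others. Replicate 1's list had summits at 14 of the 26 genes, against 20.3% of protein-coding genes, and replicate 2's at 16, against 17.4%. Both lists had them at 13, and the share of protein-coding genes in both was not counted. Of the 26 genes, 8 had a higher peak than any of the 9.

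The nhl-2 gene, for a TRIM-NHL cofactor of the microRNA-induced silencing complex, had a pooled signal value of 1079 (rank 32), 823 bp upstream of its 5′ end and also in the promoter window of tag-340, whose 5′ end was nearer. The puf-9 gene, for a Pumilio-family RNA-binding protein that represses hbl-1, had 1036 (rank 36), 283 bp upstream. Replicate 1 gave the nhl-2 site 633 and the puf-9 site 584, and replicate 2 gave 438 and 461, within the first 41 ranks of either list. Lower in the order, after 6 genes described next, the Argonaute gene alg-1 had 217 and ain-1, of the GW182 family, had 207. No summit was assigned to the second GW182 gene, ain-2, or to the Dicer gene dcr-1.

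Of the 6 genes between puf-9 and alg-1, blmp-1, a zinc finger gene related to Blimp-1, had a value of 590 (rank 140), 1687 bp upstream of its outermost 5′ end, with ACCGGT. The myelin regulatory factor gene myrf-2 had 423 and the zinc finger gene sea-2 had 416, and both summits held the palindrome AACCGGTT. The nuclear receptor genes nhr-25 and nhr-23 had 256 and 245, both with ACCGGT, and nhr-25 held 6 summits. The casein kinase gene kin-20, a relative of the kinase that acts on Period in flies, held 5 summits, the highest at 567 and with ACCGGT. No pathway gene outside these 6 had a Grainyhead-type site at its highest pooled summit. Lower thresholded summits were at nhr-85, xrn-2, myrf-1, mab-10, pup-2, lin-66, lep-2 and alg-2. The highest summits of nhr-85, xrn-2, mab-10 and pup-2 were nearer to the 5′ ends of hpo-2, bop-1, R166.2 and hira-1, in whose promoter windows they lay. Besides ain-2, dcr-1 and the microRNA genes mir-48, mir-84 and mir-241, the genes daf-12, dre-1 and lep-5 had no pooled summit.

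**Figure D5:**
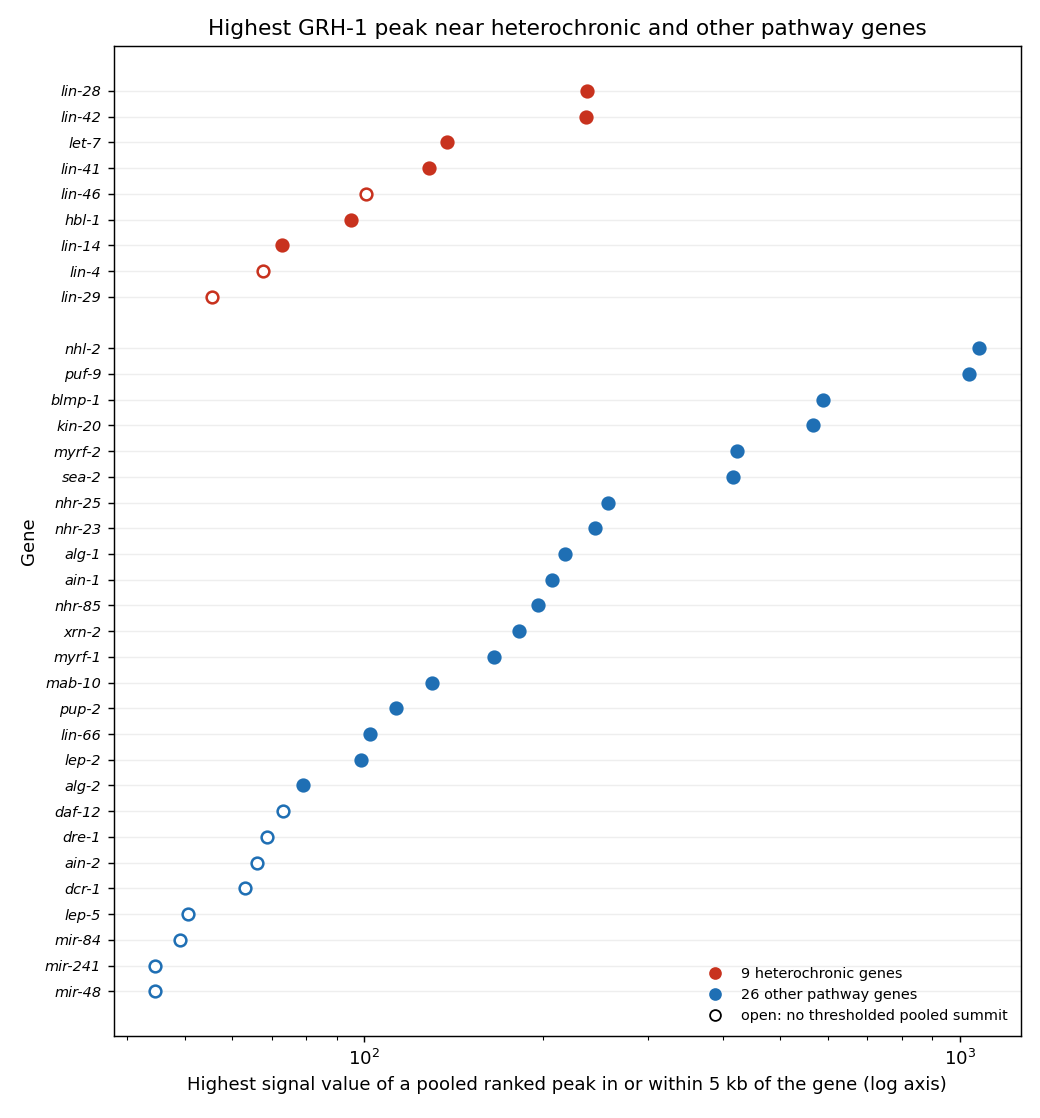
Highest signal value of a pooled ranked peak in or within 5 kb (horizontal, log axis) for the 9 heterochronic genes in red, above, and 26 other genes of the pathway in blue, below; filled points have a thresholded pooled summit and open points none. The heterochronic genes reach 237 at lin-28, and 8 of the other genes lie above that, up to 1079 at nhl-2.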

How the data were processed

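The authors deposited, for each set of peaks, a thresholded list and a ranked list, with ce11 as the assembly per the labels. There is a thresholded and a ranked list for each of 2 replicates, for the pooled replicates and for a conservative pooled set. The signal value of each peak is the authors' deposited score, and its scale is not stated. The −log10 IDR of each peak was read from the deposited ranked lists. The sources used here name neither the aligner nor the peak caller, the control was not analysed here, and the number of reads is unknown. A further 32 columns, which name no sample, were not used.

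Summits were assigned to genes of Ensembl release 115 (5 kb to either side), with names from RefSeq (WormBase release 298). Motifs were searched within 100 bp of summits on chromosomes I to V and X. Analysis used Python 3.11.15, SciPy 1.17.1 and matplotlib 3.10.9. A check of the code found 200 of 200 summits placed inside gene windows and 200 of 200 motifs placed in random sequence. It covers the lookup and the motif search only, not how peaks were called. The genes, the pathway list and the motifs were chosen with earlier results of these data known. The rule for named genes took the 9 genes, any gene that holds or is nearest to their summits, and the other pathway genes with a summit, with values for up to 10. Genes named only for a peak below the threshold (mir-79, acp-5) were chosen after their values were seen. With 1 group, only counts and ranks are given. The alternatives used the conservative list, either replicate alone, or other distances, windows and assignment rules.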

Additional observations from a re-analysis of the deposited data

How the results depend on the processing

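The count of 6 genes with a summit was 6 with 2 kb or 10 kb in place of 5 kb, 5 in the conservative list, 4 where each summit went to the nearest outermost 5′ end alone, and 3 to 4 with 1 replicate left out, that is from the other replicate's own list. The count of 10 summits was 5 to 6 with 1 replicate left out, 6 by the nearest 5′ end and 8 with 1 summit per region of overlapping peaks. Promoter windows of 1 gene held a summit with 500 bp upstream, of 4 with 2000 bp and of 1 to 2 with 1 replicate left out. For these promoter counts, and for the count of genes by the nearest 5′ end, no share of protein-coding genes was taken. The share of protein-coding genes with a summit in or around the gene was 15.9% with 2 kb and 37.4% with 10 kb. It was 24.5% in the conservative list and 17.4% to 20.3% with 1 replicate left out. Grainyhead-type sites were at 1 member summit within 50 bp. The counts of summits shared with both replicates and of the other pathway genes stayed within 1.5 times under every alternative run. For the number of ranked peaks, the alternative lists were chosen after seeing the data. No paired analysis was possible because there was 1 group of samples.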

Other observations

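The full palindrome AACCGGTT occurred at 2 positions in the 9 genes and their flanks, both away from thresholded summits. They are shown with 10 bases to either side on the strand of the gene, in capitals.
lin-14 intron, chrX:11474442-11474449: gatgatcggcAACCGGTTgtcaacatgc
hbl-1 downstream, chrX:5828869-5828876: cctataattcAACCGGTTatcacctttg
The lin-14 position was 89 bp from a pooled ranked peak with a signal value of 59.99 and a −log10 IDR of 1.52, which did not pass, and 3622 bp from the thresholded summit. That peak had values of 33.3 in replicate 1 (rank 6606 of 99502) and 37.8 in replicate 2 (rank 2926 of 85197). The hbl-1 position was 430 bp from the nearest ranked peak, which had a value of 22.8 and rank 62221 of 117774. No other gene of the set held the palindrome. The core ACCGGT was at 6 positions in the 27.7 kb window of lin-29, which had no thresholded summit. It was at 7 in the 29.1 kb window of lin-42 and at 0 to 3 in those of the other genes.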
